A study of Mus musculus with 12 samples.

Results

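The interferon response genes examined here are 8 genes chosen by name: Ifit1, Ifit2, Ifit3, Isg15, Irf7, Rsad2, Usp18 and 1810023F06Rik, whose current symbol is Ifi27l2b. All 8 were found among the 19012 gene symbols of the mouse liver RNA sequencing data. Their levels were followed over 12 libraries: 4 livers of mice labelled wild type, 4 livers of mice with the genotype label E2F7/8 DKO, and 4 liver tumors with the same genotype label. DKO stands for a double knockout of E2f7 and E2f8, genes of atypical E2F factors that repress transcription. No treatment is labelled for any group. Strain, age, sex and the way the genes were deleted are not given in the sources used here. The genes other than 1810023F06Rik are classical members of the response, whereas 1810023F06Rik was added with its rise in tumors already known, so its tumor values are a description and support nothing.

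Interferons are secreted proteins that alert cells to viruses and to misplaced nucleic acid. Type I interferons bind a receptor made of Ifnar1 and Ifnar2, and the kinases Jak1 and Tyk2 then pass the signal to a complex that contains Irf9 and binds a short promoter sequence called the interferon-stimulated response element. Its core is a pair of GAAA blocks. In liver, hepatocytes and resident macrophages both respond to interferon.

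Library depth ranged from 7.985 to 15.956 M reads (M, mega). The unit is RPKM, a read count divided by exon length and library size, and 1 read in a gene with 2 kb of exons is worth 0.0313 to 0.0626 RPKM. Every member had at least 12 reads in every library. By the codes in the deposited names, the DKO liver and DKO tumor of one replicate number come from one animal, and the wild-type livers from other animals. The tag L02 is in the names of wild-type livers 1 and 2 and of every DKO liver. The tag L03 is in those of wild-type livers 3 and 4 and of every DKO tumor. What the tag stands for is not stated, and tumor and tag cannot be told apart within DKO animals. E2f7 was at 0.103 to 0.200 RPKM in wild-type livers, 0.211 to 0.400 in DKO livers and 0.0365 to 0.259 in DKO tumors, and E2f8 at 1.66 to 4.30, 2.80 to 20.8 and 1.66 to 12.2. Neither gene was lower in DKO libraries as a group. These values cover the whole transcript and no source used here gives the deleted part, so they do not check the genotype, and each group is named by its label throughout. The labelled tissue was checked on 8 hepatocyte markers (albumin, Alb, and 7 others). Their summed level was 51833 to 76017 RPKM in wild-type livers, 44917 to 117080 in DKO livers and 73553 to 133020 in DKO tumors. Most of the sum was Alb. Ttr, Cps1 and Tat had lower means in tumors than in wild-type livers (log2 differences -0.82, -0.83 and -0.53), and none of the 8 markers was called. In bulk tissue, fewer cells of a type and less RNA per cell cannot be told apart.

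The promoters of the members, which were chosen as interferon response genes, are shown as a description. Whether a match bears on the levels of the members was not tested. Promoter sequences from RefSeq (build GRCm38.p6) were found for 6 of the 8 members, that is all except Usp18 and 1810023F06Rik. The core GAAANNGAAA was searched on both strands of the 250 bases before the gene start. It occurred in 4 of those 6 members and in 936 of 27025 genes with a promoter (3.46%). Ifit1 (chr19:34640639-34640888, plus strand) and Ifit3 (chr19:34583279-34583528, plus strand) each held 2 matches in reverse orientation. Isg15 (chr4:156200819-156201068, minus strand) held 3 overlapping matches, the nearest beginning 66 bases before the start. Rsad2 (chr12:26456453-26456702, minus strand) held 1 match beginning 120 bases before the start. Ifit2 and Irf7 held no match in this window. A match describes letters only. The 4 sequences are given 5′ to 3′ in the direction of the gene, ending at the base before the start, with the matches in capitals:
Ifit1: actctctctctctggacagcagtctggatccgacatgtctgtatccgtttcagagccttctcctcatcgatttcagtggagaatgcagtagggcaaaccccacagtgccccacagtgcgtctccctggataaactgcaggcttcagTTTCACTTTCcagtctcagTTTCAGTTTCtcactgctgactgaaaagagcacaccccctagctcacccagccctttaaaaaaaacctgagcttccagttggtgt
Ifit3: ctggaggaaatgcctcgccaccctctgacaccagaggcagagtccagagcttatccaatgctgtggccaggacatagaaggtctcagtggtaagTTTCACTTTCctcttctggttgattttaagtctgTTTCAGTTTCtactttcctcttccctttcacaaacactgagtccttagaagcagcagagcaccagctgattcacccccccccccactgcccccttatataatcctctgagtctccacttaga
Isg15: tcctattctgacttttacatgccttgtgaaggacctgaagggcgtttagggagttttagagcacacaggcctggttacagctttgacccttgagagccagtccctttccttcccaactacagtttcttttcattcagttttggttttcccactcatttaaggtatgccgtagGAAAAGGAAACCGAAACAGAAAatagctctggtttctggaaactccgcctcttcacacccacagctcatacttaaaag
Rsad2: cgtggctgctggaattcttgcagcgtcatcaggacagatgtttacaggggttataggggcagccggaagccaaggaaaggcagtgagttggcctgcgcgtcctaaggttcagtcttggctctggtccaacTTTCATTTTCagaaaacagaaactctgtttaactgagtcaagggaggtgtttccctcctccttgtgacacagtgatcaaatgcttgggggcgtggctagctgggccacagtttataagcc

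Ifit1 encodes a protein that binds viral RNA that lacks the host's cap methylation. Ifit1 (mm9 chromosome 19, 34715378 to 34724498) was at 1.90, 3.05, 8.58 and 1.60 RPKM in wild-type livers 1 to 4, at 2.79, 2.27, 18.0 and 6.25 in DKO livers 1 to 4, and at 4.61, 2.03, 16.3 and 2.02 in DKO tumors 1 to 4. In each group the library numbered 3 was the highest. The other libraries lay between 1.60 and 6.25, and the ranges of the 3 groups overlapped between 2.27 and 3.05. Ifit2 (chromosome 19, 34625183 to 34651023) was at 0.539, 1.88, 2.04 and 0.605 RPKM in wild-type livers, at 1.21, 1.69, 9.60 and 2.65 in DKO livers, and at 2.52, 3.21, 7.81 and 1.38 in DKO tumors. The liver and tumor of DKO animal 3 again stood above the rest, while wild-type liver 3 was close to wild-type liver 2. Ifit3 (chromosome 19, 34658018 to 34663471) was at 0.815, 1.76, 2.23 and 0.949 RPKM in wild-type livers, at 1.28, 0.898, 8.37 and 1.51 in DKO livers, and at 1.88, 1.34, 7.18 and 1.03 in DKO tumors. Outside animal 3, no DKO library exceeded wild-type liver 3 in Ifit3. Ifit3 has a near-identical copy, Ifit3b (listed as LOC667370), so the split of reads between them is uncertain. Ifit3b was at 3.95 RPKM in DKO liver 3 (others at most 0.911), 2.12 in DKO tumor 3 (others at most 0.778) and 1.09 in wild-type liver 3 (others at most 0.853), and was not called in any comparison.

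Isg15 encodes a ubiquitin-like protein that is attached to other proteins, and Usp18 encodes the protease that removes it and also restrains the interferon receptor. Isg15 (chromosome 4, 155573563 to 155574904) was at 8.55, 9.33, 20.3 and 5.40 RPKM in wild-type livers, at 6.23, 6.95, 54.6 and 13.5 in DKO livers, and at 7.31, 6.16, 29.3 and 7.57 in DKO tumors. Animal 3 held the highest liver and the highest tumor, and tumors 1, 2 and 4 lay within the range of the wild-type livers. Usp18 (chromosome 6, 121195974 to 121220934) was at 1.38, 3.36, 17.8 and 2.21 RPKM in wild-type livers, at 3.75, 3.13, 29.7 and 6.83 in DKO livers, and at 5.10, 16.8, 23.9 and 15.4 in DKO tumors. It followed Isg15 in the livers but not in the tumors: tumors 2 and 4 were at 16.8 and 15.4 RPKM of Usp18 and had Isg15 at 6.16 and 7.57.

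Irf7 encodes the transcription factor that amplifies type I interferon production, and Rsad2 encodes viperin, an antiviral enzyme. Irf7 (chromosome 7, 148449087 to 148452299) was at 4.93, 15.4, 47.9 and 6.03 RPKM in wild-type livers, at 16.1, 9.42, 68.8 and 15.8 in DKO livers, and at 4.79, 2.28, 48.7 and 3.05 in DKO tumors. It had the widest range within a group, 21.4-fold among the tumors. Tumors 1, 2 and 4 were all below the lowest wild-type liver. Rsad2 (chromosome 12, 27127617 to 27141295) was at 0.400, 1.56, 2.98 and 0.898 RPKM in wild-type livers, at 1.56, 2.20, 4.15 and 4.71 in DKO livers, and at 3.29, 1.47, 4.17 and 3.01 in DKO tumors. DKO liver 4, not DKO liver 3, was the highest for Rsad2, and the 3 groups overlapped between 1.56 and 2.98.

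1810023F06Rik belongs to the Ifi27 family of small interferon-inducible membrane proteins. It (chromosome 12, 104689107 to 104695432) was at 1.38, 5.50, 10.2 and 4.31 RPKM in wild-type livers, at 2.57, 7.39, 38.8 and 16.8 in DKO livers, and at 45.5, 32.9, 35.5 and 35.9 in DKO tumors. All 4 tumors were above all 4 wild-type livers, and above DKO livers 1, 2 and 4, but DKO liver 3 lay inside the tumor range. Among tumors it varied only 1.38-fold, against 15.1-fold among DKO livers and 7.39-fold among wild-type livers. No other gene in the data overlaps the span of any of the 8 members.

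**Figure D1:**
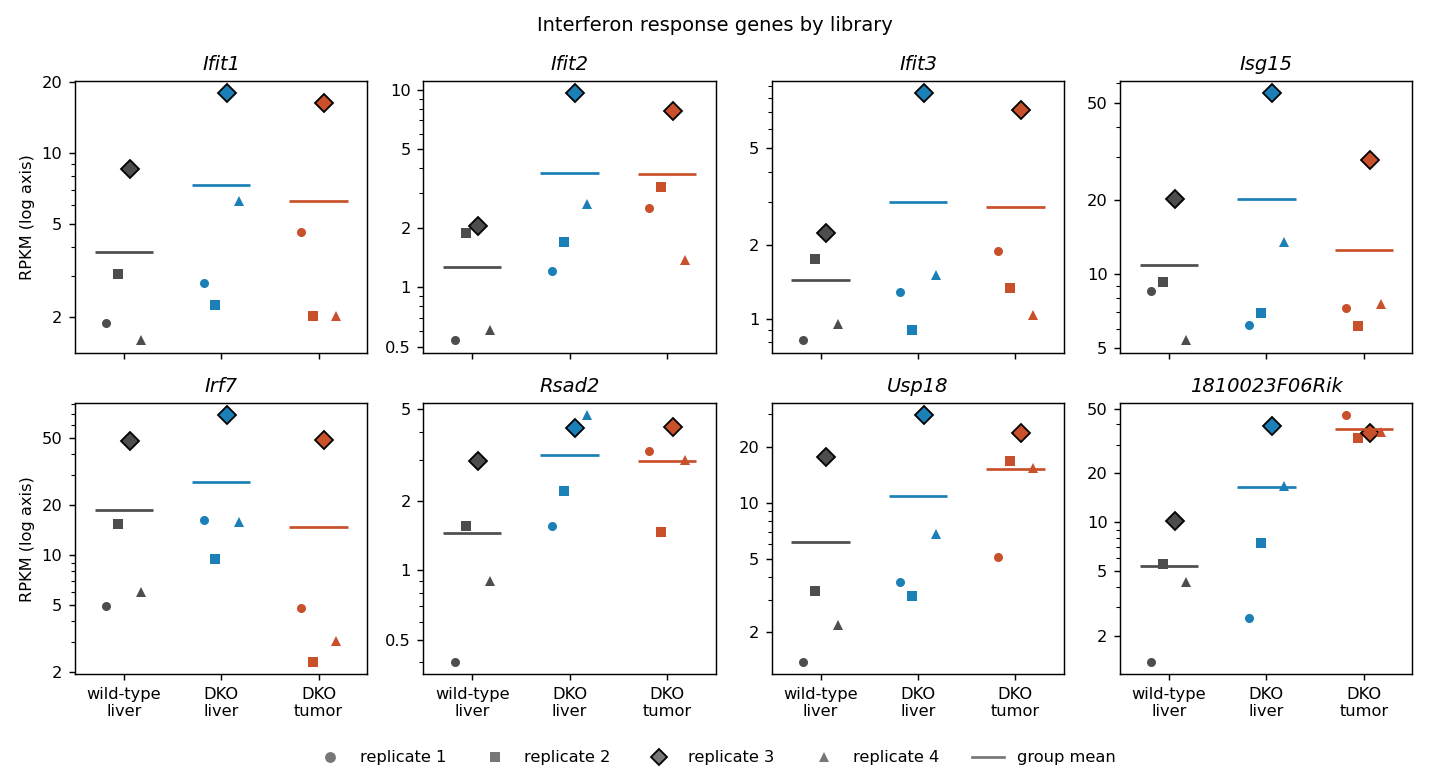
RPKM (log axis) of the 8 genes in each of the 12 libraries, with 1 panel per gene, 1 symbol per replicate number, replicate 3 outlined in black, and a line at each group's mean. Replicate 3 is the highest of its group in every panel except Rsad2 in DKO livers and 1810023F06Rik in DKO tumors, where all 4 tumors lie between 32.9 and 45.5 RPKM.

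Within groups the members varied more than most genes. The standard deviation of log2(RPKM + 1) among DKO livers had a median of 1.17 over the 8 members, against 0.28 over the 11351 genes tested, which reached 0.5 RPKM in 4 or more libraries. Among DKO tumors these medians were 0.89 and 0.29, and among wild-type livers 0.79 and 0.22. All 8 members exceeded the median of all genes in both liver groups and 7 of 8 did so in tumors, 1810023F06Rik being the exception with 0.20.

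Much of this spread lay in libraries numbered 3. This pattern was noticed after the values were seen. DKO liver 3 was the highest DKO liver and DKO tumor 3 the highest DKO tumor for 6 of the 8 members, the exceptions being Rsad2 and 1810023F06Rik, while 25.9% of all tested genes met the same condition. After median-of-ratios scaling, which sets the typical gene equal among libraries, the condition held for the same 6 members and for 9.02% of all genes. Wild-type liver 3, from another animal, was the highest wild-type liver for 8 of 8 members, against 35.9% of all genes, and for 8 of 8 and 26% after scaling. The level in DKO liver 3 was 1.88 to 7.93 times the median of the other DKO livers over the 8 members, with a median of 6.06. For DKO tumor 3 the ratio ranged from 0.99 to 15.9 with a median of 3.55, and for wild-type liver 3 from 2.35 to 8.05 with a median of 3.35. DKO liver 3 carries the tag L02, and DKO tumor 3 and wild-type liver 3 carry L03. Whether the tag bears on the levels in these libraries was not tested. The typical gene was also higher in these libraries: on the RPKM + 1 scale the median ratio over all tested genes was 1.22 in DKO liver 3, 1.15 in DKO tumor 3 and 1.06 in wild-type liver 3, against 4.45, 2.997 and 2.17 over the members. After median-of-ratios scaling the members' medians were 3.56, 2.45 and 2.0001, and those of all genes 0.992, 0.979 and 0.997.

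**Figure D2:**
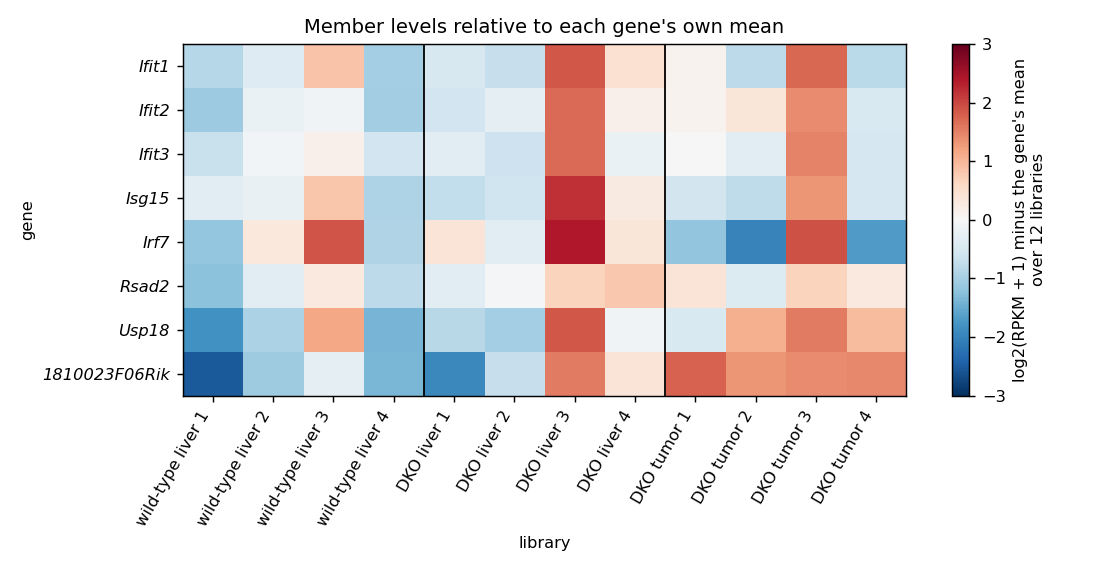
Difference of log2(RPKM + 1) from the gene's own mean over 12 libraries (color, scale from -3 to 3), with 8 genes in rows and 12 libraries in columns, and black lines between the 3 groups. The DKO liver 3 and DKO tumor 3 columns are above the gene's mean for all 8 genes, and the 1810023F06Rik row is above its mean in all 4 tumors.

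Some markers of other cell types also stood high in animal 3. The summed level of 6 neutrophil markers was 143.8 RPKM in DKO liver 3 against 9.83 to 36.8 in the other DKO livers, and 35.6 in DKO tumor 3 against 4.55 to 7.14 in the other tumors. In wild-type liver 3 it was 7.66, within the 5.96 to 12.6 of the other wild-type livers. The 13 T, B and NK cell markers summed to 26.5 RPKM in DKO liver 3 (others 9.64 to 16.6), 17.1 in DKO tumor 3 (others 3.87 to 5.15) and 18.4 in wild-type liver 3 (others 5.67 to 11.3). Animal 3 held the highest DKO liver and tumor for 8 of the 10 of them tested, and for 5 after median-of-ratios scaling. Cd3e was lower in DKO liver 3 (1.58 RPKM) than in the other DKO livers (1.73 to 1.95). The 10 macrophage and Kupffer cell markers summed to 573 RPKM in DKO liver 3, inside the 276 to 727 of the other DKO livers. They summed to 432 in DKO tumor 3 (others 139 to 234) and to 454 in wild-type liver 3 (others 148 to 354). The 5 cholangiocyte markers summed to 166 RPKM in DKO liver 3 (others 27.2 to 45.9) and 118 in DKO tumor 3 (others 18.7 to 37.3), and were at 34.0 in wild-type liver 3, inside the 25.0 to 41.9 of the others. Spp1 alone made up 153.8 and 102.9 RPKM of the sums in DKO liver 3 and DKO tumor 3, and Sox9 was not highest in DKO tumor 3 (2.59 RPKM, others up to 3.84). The 7 endothelial markers summed to 87.6 RPKM in DKO liver 3 (others 67.1 to 99.0), 79.6 in DKO tumor 3 (others 32.5 to 51.2) and 65.1 in wild-type liver 3 (others 41.8 to 64.1). The 5 plasmacytoid dendritic cell markers summed to 262 RPKM in DKO liver 3 (others 57.3 to 119) and 125 in DKO tumor 3 (others 40.5 to 85.3), of which 261 and 124 were Bst2, itself an interferon response gene, and to 108 in wild-type liver 3 (others 69.4 to 112). No marker in these lists was at 0 in all libraries. The part of these cells in the members' levels was not tested.

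The first comparison, of livers by genotype label, asks how liver outside the tumors differs between the DKO and wild-type labels. Because each DKO liver came from an animal with a tumor, genotype and tumor bearing cannot be told apart. All 8 members had a higher mean in DKO livers, with a median log2 difference of 0.70 on the log2(RPKM + 1) scale, where the median of all tested genes was 0.08. None of the 8 passed limma's test (adjusted p under 0.05), as no gene of the 11351 did (0%), while 1408 genes and 1 member, Rsad2, were under 0.05 unadjusted. Rsad2 had a mean of 1.46 ± 1.12 RPKM in wild-type livers and 3.16 ± 1.51 in DKO livers (SD, n = 4 each; log2 difference 0.79, SE 0.34, limma adjusted p = 0.388). Ifit2 was at 1.27 ± 0.806 and 3.79 ± 3.92 RPKM (0.85, SE 0.50, limma adjusted p = 0.485) and 1810023F06Rik at 5.34 ± 3.65 and 16.4 ± 16.1 RPKM (1.13, SE 0.63, limma adjusted p = 0.469). The members' median was 0.11 when DKO liver 3 was left out, 0.43 for wild-type liver 1 and 0.46 for wild-type liver 4. It reached 1.05 with wild-type liver 3 left out and was 0.98 under tag L02 alone, with 4 DKO livers and wild-type livers 1 and 2. Without DKO liver 3, Ifit3 and Isg15 had lower means in DKO livers (-0.10 and -0.19). For no member was the lowest DKO liver above the highest wild-type liver, which 5.62% of all genes showed.

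The second comparison sets DKO tumors against livers labelled wild type. 1810023F06Rik rose, and it was the 1 member of 8 called, where 1.9% of all genes were. Because it was added with this rise known, its call and the values below are a description. Of the other 7 members, 0 were called. Its mean went from 5.34 ± 3.65 to 37.4 ± 5.51 RPKM (SD, n = 4 each; log2 difference 2.80, SE 0.63, limma adjusted p = 0.0461). It was also the 1 member whose lowest tumor was above the highest wild-type liver, as were 5.57% of all genes. Under tag L03 alone, with 4 tumors and wild-type livers 3 and 4, the difference was 2.31 (limma adjusted p = 0.0246), and with the tag as a covariate over 12 libraries it was 2.31 with an adjusted p of 0.351. The call held in 4 of 12 fits that left out 1 library. It was lost without wild-type liver 1, 2 or 4, without DKO liver 2, or without any one of the 4 tumors, with adjusted p from 0.0563 to 0.147 in those 8 fits.

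The other 7 members did not pass in DKO tumors against wild-type livers. Usp18 had the largest of these differences, at 6.18 ± 7.76 RPKM in wild-type livers and 15.3 ± 7.74 in tumors (SD, n = 4 each; log2 difference 1.54, SE 0.73, limma adjusted p = 0.277). With DKO animal 3 and wild-type liver 3 left out, a choice made after seeing the values, the Usp18 difference was 1.91 (limma adjusted p = 0.0407). In that fit 388 of all 11351 genes were called. Ifit2 (log2 difference 0.96, limma adjusted p = 0.32) and Rsad2 (0.76, limma adjusted p = 0.254) also had higher means in tumors. Irf7 was the 1 member with a lower mean, at 18.6 ± 20.1 and 14.7 ± 22.7 RPKM (-0.78, SE 0.91, limma adjusted p = 0.702). Isg15 was at 10.9 ± 6.52 and 12.6 ± 11.2 RPKM (0.05, SE 0.65), and without DKO tumor 3 its difference was -0.43. The median over the 8 members was 0.61, against -0.02 for all tested genes. It was 0.31 without DKO tumor 3 and 0.91 without wild-type liver 3. Over the 7 members other than 1810023F06Rik it was 0.46, and 0.014 without DKO tumor 3.

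**Figure D3:**
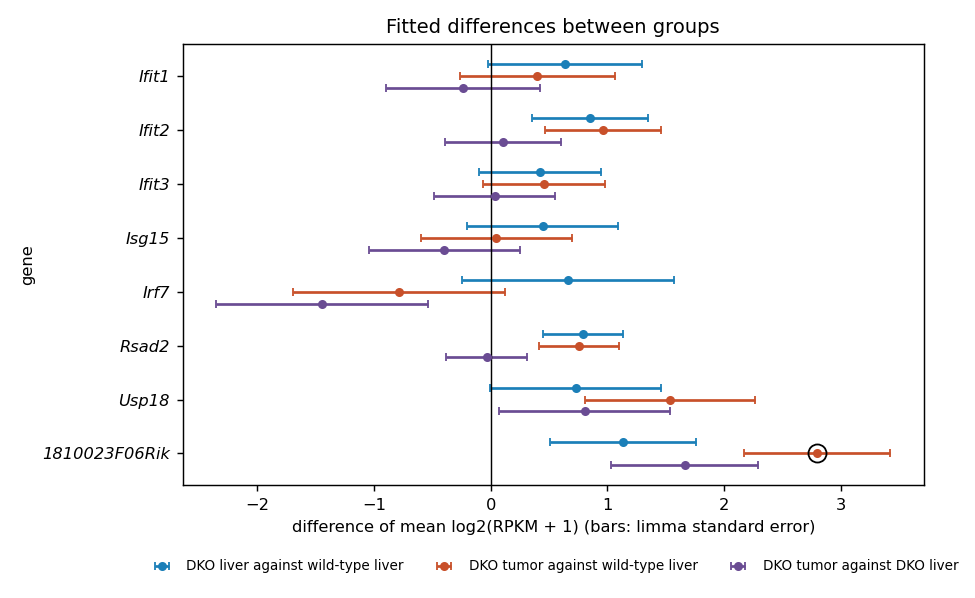
Fitted differences of mean log2(RPKM + 1) with limma standard errors (bars) for the 8 genes in the 3 comparisons (colors), with a circle around differences whose adjusted p is under 0.05. The circled point is 1810023F06Rik in DKO tumors against wild-type livers (2.80), and the other 23 points are not circled.

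The third comparison sets DKO tumors against the livers of the same animals. Tag and tissue cannot be told apart here. No member passed limma's test, and 1 of the 11351 genes (0.00881%) did, while 1822 genes and 1 member, 1810023F06Rik, were under 0.05 unadjusted. That fit had no term for the animal and so ignored the pairing. A fit of the 8 libraries alone with the animal as a block called 71 genes and 0 members. In it, 1954 genes and 2 members were under 0.05 unadjusted. The median log2 difference of the members was 0.00, against -0.09 for all tested genes, and 4 of 8 were positive. For no member was the lowest tumor above the highest DKO liver, which 2.12% of all genes showed. The largest differences in each direction were those of Irf7 (-1.44, SE 0.91, limma adjusted p = 0.454) and 1810023F06Rik (1.66, SE 0.63, limma adjusted p = 0.226).

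Irf7 was lower in the tumor than in the liver in 4 of 4 animals, by 3.36-fold, 4.13-fold, 1.41-fold and 5.17-fold in animals 1 to 4. Over all tested genes the median tumor over liver ratio was 0.767, 0.961, 0.895 and 1.15 in these animals, on the RPKM + 1 scale. The share of all genes lower in 4 of 4 animals was not computed. With the animal as a block, the Irf7 difference of -1.44 had an SE of 0.26 and a limma adjusted p of 0.0655. Without animal 3 the difference was -1.76 (limma adjusted p = 0.231), and without animal 3 and wild-type liver 3 it had an adjusted p of 0.0496. These libraries were left out after their high Irf7 values were seen, so the 2 fits are descriptions. Of all 11351 genes, 180 and 199 were called in them. 1810023F06Rik was higher in the tumor in 3 of 4 animals, with tumor over liver ratios of 17.7, 4.46, 0.91 and 2.14 (blocked limma adjusted p = 0.216). Its tumor levels were close to each other while the liver levels were not, so the ratio followed the liver level. Usp18 had ratios of 1.36, 5.35, 0.80 and 2.25 (blocked limma adjusted p = 0.317). Isg15 had ratios of 1.17, 0.89, 0.54 and 0.56, and Ifit1 1.65, 0.90, 0.91 and 0.32. The ratios of Ifit2, Ifit3 and Rsad2 ranged from 0.52 to 2.10, with the tumor higher in 2 of 4 animals for each. In animal 3, 7 of the 8 members were no higher in the tumor, and Rsad2 had a ratio of 1.01. The typical gene was also lower in that tumor (median ratio 0.895), and the share of all genes no higher there was not computed.

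**Figure D4:**
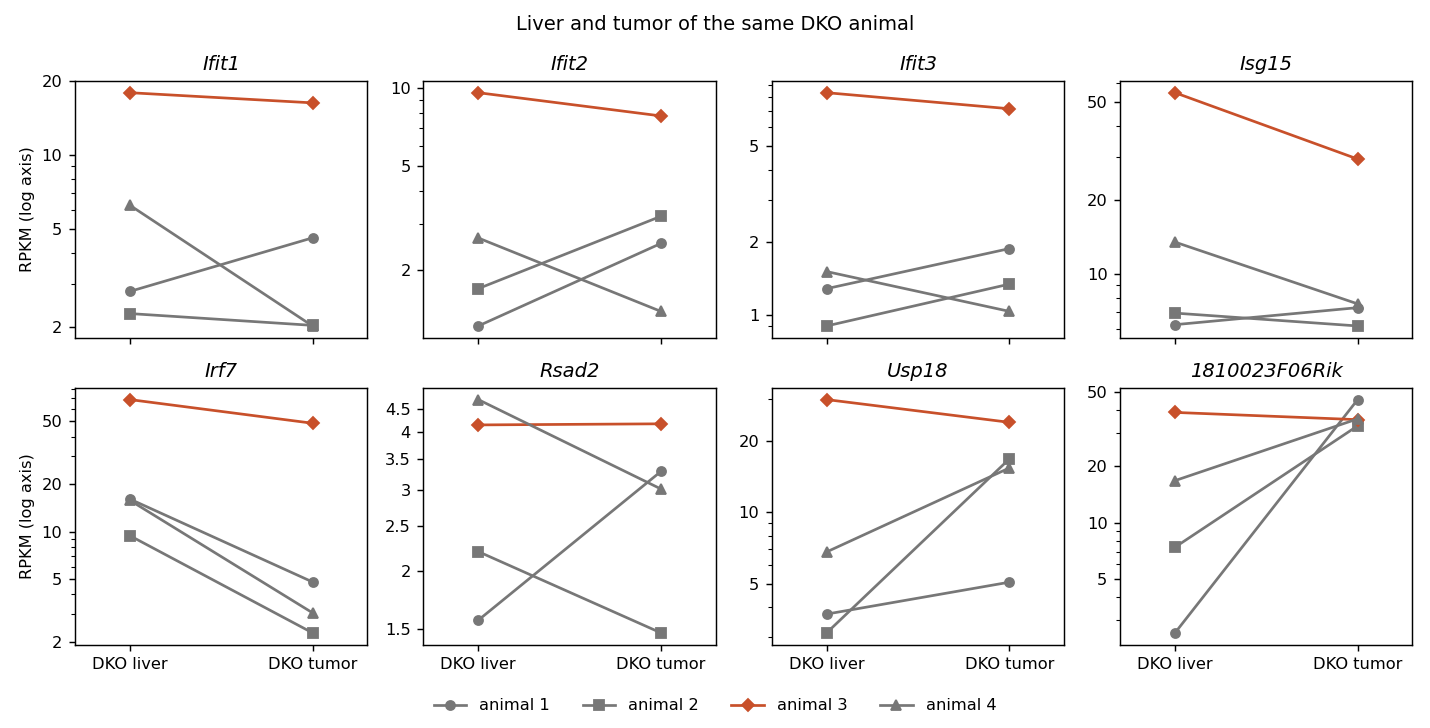
RPKM (log axis) in the liver and the tumor of each of the 4 DKO animals, joined by lines, with 1 panel per gene and animal 3 in orange. All 4 Irf7 lines fall from liver to tumor, the 4 lines of 1810023F06Rik meet between 32.9 and 45.5 RPKM in the tumors, and animal 3 is highest at both ends for Ifit1, Ifit2, Ifit3, Isg15, Irf7 and Usp18.

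The levels of the members were correlated across libraries. Pearson's r of log2(RPKM + 1) over the 12 libraries ranged from 0.46 to 0.95 over the 21 pairs of the 7 members other than 1810023F06Rik, with a median of 0.75, and from 0.60 to 0.95 once group means were subtracted. The highest was between Ifit1 and Isg15 (0.95) and the lowest between Irf7 and Usp18 (0.46). 1810023F06Rik had r from 0.09 with Irf7 to 0.79 with Usp18. Once group means were subtracted, its r ranged from 0.54 (Irf7) to 0.80 (Rsad2), which largely overlaps the range of the other pairs. These are descriptions: liver and tumor of a DKO animal are not independent, and the libraries numbered 3 weigh in every pair.

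The genes with the profile most like the mean of those 7 were looked up among the other 11343 tested genes. Among the 8 highest were Oas1a (r = 0.97), Ifi44 (0.97), Parp12 (0.97), D12Ertd647e (0.96; now Ifi27), Mx1 (0.96), Ifi203 (0.95) and Oasl2 (0.95). Once group means were subtracted, the r of those named ranged from 0.946 (Oasl2) to 0.977 (Parp12). In all, 38 genes had r above 0.9. Oas1a encodes an enzyme that makes the activator of RNase L, and it reached 7.60 RPKM in wild-type liver 3, 10.1 in DKO liver 3 and 10.9 in DKO tumor 3, the highest of each group, from lows of 0.201, 1.12 and 0.712. The genes most like 1810023F06Rik were Cobl (r = 0.96), Lypd1 (0.96), Cyp4f16 (0.95), Chmp4c (0.94) and Mpp1 (0.94), none of which is among the 8 closest to the other members. Once group means were subtracted, these ranged from 0.865 (Chmp4c) to 0.966 (Mpp1). Cobl, an actin nucleator gene, averaged 2.995 ± 1.45 RPKM under the wild-type label, 5.26 ± 3.10 in DKO livers and 7.65 ± 0.391 in the tumors (SD, n = 4 each). These r values rank 11343 genes over 12 libraries and say nothing of shared function.

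The rest of the pathway was taken from 12 lists with 152 entries, of which 146 matched a gene other than the members and 114 were tested. Of these 114 genes, 1 was called in any comparison. That call was in DKO tumors against wild-type livers, where 216 of all 11351 genes (1.9%) were called. Ifngr1, a chain of the interferon-gamma receptor, rose from 14.7 ± 2.88 RPKM in wild-type livers to 38.2 ± 10.5 in DKO tumors (SD, n = 4 each; log2 difference 1.29, SE 0.25, limma adjusted p = 0.0257), with 19.1 ± 6.02 in DKO livers. The Ifngr1 call was lost without wild-type liver 1 (adjusted p = 0.0939) or 4 (0.0963), without DKO tumor 1 (0.0626) or 2 (0.0811), and with the tag as a covariate (1.20, adjusted p = 0.234) or within L03 (1.20, adjusted p = 0.232). The 4 other receptor chains tested were not called in any comparison.

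Of the 21 interferon genes, 18 were listed at 0 in all 12 libraries, and the remaining 3, Ifnk, Ifnz and Ifng, did not exceed 0.306 RPKM. The counting tool and filters are not given, so a listed 0 does not show that a transcript was absent. None of the 6 JAK-STAT genes, 6 other interferon regulatory factor genes, 16 sensor and adaptor genes, 36 antiviral effector genes or 7 negative regulators that were tested was called in any comparison. For antiviral effectors the median log2 difference was 0.37 in DKO livers against wild-type livers, 0.05 in DKO tumors against wild-type livers and -0.34 in DKO tumors against DKO livers. Ifitm3, which blocks virus entry, was at 339 ± 82.4, 504 ± 185 and 305 ± 116 RPKM in wild-type livers, DKO livers and DKO tumors (SD, n = 4 each). Animal 3 held the highest DKO liver and tumor for 32 of these 36 genes (all tested genes, 25.9%), and for 27 of 36 after median-of-ratios scaling. The same count after scaling was 8 of 15 for interferon-gamma GTPase and chemokine genes, 3 of 12 for MHC class I presentation genes and 6 of 7 for MHC class II genes. It was 3 of 6 for JAK-STAT genes, 3 of 16 for sensor and adaptor genes and 1 of 5 for receptor genes. Other interferon regulatory factor genes gave 0 of 6, negative regulators 0 of 7, ISG15 conjugation enzymes 1 of 2 and the Ifi27 family 2 of 2. All tested genes gave 9.02%.

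The remaining short lists were also not called. Among ISG15 conjugation enzymes, Ube2l6 was at 128 ± 32.2, 119.9 ± 33.6 and 95.3 ± 26.2 RPKM in the 3 groups in the order above, and Ube1l (now Uba7) at 3.21 ± 1.25, 4.29 ± 2.57 and 2.85 ± 2.11 (SD, n = 4 each). The relatives of 1810023F06Rik did not share its uniform tumor level. D12Ertd647e, now Ifi27, had means of 118 ± 87.6, 156 ± 112 and 127 ± 82.3 RPKM in the 3 groups. The gene listed as Ifi27, now Ifi27l2a, had 4.83 ± 3.82, 12.6 ± 16.6 and 5.17 ± 7.26 RPKM, with the highest tumor, number 3, at 15.98. Family members have similar sequences, so reads may be split between them.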

How the data were processed

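PolyA RNA of 12 mouse liver samples was sequenced from SOLiD total RNA-seq libraries, per the labels' protocols. The authors deposited RPKM for 21247 RefSeq transcripts per library. BWA and build mm9 are named in the submitters' processing notes, without version or role. The counting tool and filters are not given in the sources used here. Whole reads were recovered from RPKM and exon length in 99.98% or more of the values (tolerance 0.05 of a read), giving reads per gene and a depth of 7.985 to 15.956 M reads per library (M, mega). Intervals from such reads cover counting error only.

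Symbols with several transcripts were represented by their longest. The 11351 genes reaching 0.5 RPKM in 4 or more libraries, all 8 members among them, were fitted with limma 3.58.1 in R 4.3.3 on log2(RPKM + 1), with 1 mean per group over 12 libraries, an intensity trend and robust shrinkage. Tests were two-sided, with Benjamini-Hochberg adjustment over all tested genes. The offset of 1 understates changes of low genes. The fit was tested on simulated data with independent noise per gene and library, which does not cover pairing or shifts shared by genes. Samples are separate animals except liver and tumor of a DKO animal. Over all tested genes, the correlation of deviations from group means was 0.117, 0.347, 0.368 and 0.00285 for the liver and tumor of animals 1 to 4. Among the DKO livers, tumor 1 had a higher correlation with liver 4 (0.154) than with its own. Tumor 4 had a higher correlation with liver 1 (0.0916) than with its own. The remaining tumors had their highest correlation with their own liver. These values alone would therefore not pair liver and tumor of animals 1 and 4. The pairing of liver and tumor comes from the codes in the deposited names, and the blocked fit and the ratios per animal rest on it.

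Named genes are the 8 members, called genes (at most 3) or the 2 most abundant of a list, and the genes of highest r to the members (8) and to 1810023F06Rik (5). Not all of these are described, and 1 of the 8 is not reported here. Members, lists and rules were chosen with earlier results of these data known. A further check left out animal 3 and wild-type liver 3 after the values were seen. Tables were made with Python 3.11.15, pandas 2.3.3, numpy 2.4.6 and matplotlib 3.10.9.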

Additional observations from a re-analysis of the deposited data

Results flagged for a closer look

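Among 24 groups of 4 libraries (8 genes in 3 groups), 8 held a library far from the other 3 in RPKM. The rule used flags about 1 in 20 groups by chance only if values are normally distributed, which was not checked for RPKM. Its rate over all tested genes was not computed, and DKO liver 3 was the highest DKO liver for 58.1% of them. The count of 8 is therefore a description and is not set against chance. DKO liver 3 stood apart for Ifit3 (8.37 RPKM, next highest 1.51), Isg15 (54.6, next 13.5), Irf7 (68.8, next 16.1) and Usp18 (29.7, next 6.83). DKO tumor 3 stood apart for Ifit3 (7.18 RPKM, next 1.88), Isg15 (29.3, next 7.57) and Irf7 (48.7, next 4.79). Wild-type liver 3 stood apart for Usp18 (17.8 RPKM, next 3.36). The genes are correlated, so these are not 8 separate events, and 7 of the 8 are in DKO animal 3.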

How the results depend on the processing

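Between DKO tumors and wild-type livers, no member was called (0) with an offset of 0.1, without a filter, with a filter of 1 RPKM in 6 libraries, with voom on recovered reads, with the tag as a covariate, or without 1810023F06Rik, whose adjusted p was 0.0519, 0.0685, 0.0512, 0.0721 and 0.351 in the first 5. It was 0.0144 to 0.0450 in the other fits that were planned and left out no single replicate. Without animal 3 and wild-type liver 3, 2 members were called, and 1 between tumors and DKO livers. The cause was not tested.

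Of all genes, tumors against wild-type livers gave 216 calls, and 491 with quantile normalization, 598 with median-of-ratios scaling, 112 without a filter, 128 with the replicate block, 3 with the tag as a covariate, 25 within L03, 483 without animal 3 and 388 without animal 3 and wild-type liver 3. Tumors against DKO livers gave 1 call, and 19 with quantile normalization, 0 with the stricter filter, 55 with the 8 libraries alone, 71 with the replicate block, 180 without animal 3 and 199 without it and wild-type liver 3. DKO livers against wild-type livers gave 0, and 1 with median-of-ratios scaling, with the 8 libraries alone, and without animal 3 and wild-type liver 3. The replicate block changed no member's call. Numbers shared with wild-type livers do not mark the same animal.

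Leaving out 1 library at a time gave 0 to 1 members called between tumors and wild-type livers and 0 in the other comparisons. All-gene calls ranged from 16 to 413, from 0 to 365 for tumors against DKO livers, and from 0 to 2 for DKO livers against wild-type livers. The members' median ranged from 0.31 to 0.91, from -0.33 to 0.42 and from 0.11 to 1.05 in the same order. Over the 7 members other than 1810023F06Rik, the median for tumors against wild-type livers was as low as 0.014 (without DKO tumor 3) and as high as 0.81 (without wild-type liver 3).

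Signs that turned belong to differences that were never called. For DKO livers against wild-type livers, Ifit3 was -0.10 and Isg15 -0.19 without animal 3. For tumors against wild-type livers, Ifit1 was -0.15 without animal 3, and Isg15 -0.067 with the tag as a covariate or within L03, -0.43 without animal 3 and -0.10 without it and wild-type liver 3. For tumors against DKO livers, Rsad2 was 0.057 with quantile normalization and 0.068 with median-of-ratios scaling. With 1 library left out, the ranges that cross 0 were -0.10 to 0.67 (Ifit3) and -0.19 to 0.79 (Isg15) in DKO livers against wild-type livers, -0.15 to 0.81 (Ifit1) and -0.43 to 0.38 (Isg15) in tumors against wild-type livers, and -0.79 to 0.29 (Ifit1), -0.25 to 0.59 (Ifit2), -0.41 to 0.55 (Ifit3), -0.88 to 0.25 (Isg15) and -0.24 to 0.18 (Rsad2) in tumors against DKO livers. The lowest member count was 12 reads, and each group holds 4 animals.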
